A study of Mus musculus with 8 samples.

Results

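The genes described here are the 84 nuclear genes, of 32285 in the deposited annotation, whose symbols name subunits of the 5 complexes of oxidative phosphorylation. They were chosen by symbol alone: Nduf genes of complex I (37), Sdha to Sdhd of complex II (4), Uqcr genes of complex III (8), numbered Cox genes of complex IV (18) and Atp5 genes of complex V (17), with pseudogenes and Ndufaf assembly factors left out. The rule uses no measured value, but the group was picked for description with earlier results of these data known. Counted by symbol, Ndufa4 and Ndufa4l2 stand under complex I, although Ndufa4 is known to associate with complex IV. Levels were measured by single-nucleus RNA sequencing, which counts unique molecular identifiers (UMIs, tags that mark single captured RNA molecules) of RNA held in isolated nuclei. The tissue was the anterior hippocampus and the caudate putamen (the dorsal striatum) of C57BL/6JN mice aged 3 or 21 months. Each of the 4 groups of age and region had 2 libraries, 8 in all, and each library pooled nuclei of 1 male and 1 female mouse, so a difference between the sexes cannot be seen. All animals carried the same strain background, with no genetic change or treatment named. Punches of the left hemisphere were lysed in detergent buffer, and nuclei were sorted by a DNA dye before droplet capture. The comparisons ask how the members' transcripts vary between cell classes, with age, and between the regions. P-values measure the spread between these pooled libraries, and nothing in the labels ties a replicate number in one region to the same animals in the other.

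Oxidative phosphorylation couples electron transport in the inner mitochondrial membrane to ATP synthesis. Complexes I (NADH dehydrogenase) and II (succinate dehydrogenase) feed electrons into ubiquinone, complex III passes them to cytochrome c, complex IV reduces oxygen, and complex V uses the resulting proton gradient to make ATP. Complexes I, III, IV and V are built from nuclear and mitochondrial gene products, whereas complex II is wholly nuclear, and several complex IV subunits have alternative isoforms used in particular tissues. In the brain most of the ATP that supports ion pumping is made this way. A nuclear preparation sees mainly newly made and retained nuclear transcripts of these genes. The cytoplasmic pool that is translated is seen only as far as it is carried over, and the complexes themselves are not seen.

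Many genes of this group have promoters with binding motifs of the factors NRF1, ETS (GABPA) and YY1, so promoters of 4 members whose level fell with age (below) are shown first. They were picked to show matches: of the 20 members called lower with age, 17 had a promoter in the table, and 13 of these held none of the 3 motifs. RefSeq promoters on GRCm38.p6 were matched for 68 of the 84 members (73 promoters), and the 250 bases before the annotated start were searched on both strands. The NRF1 motif GCGCANGCGC was present in 14 of 73 member promoters (19.2%) and in 1228 of all 32851 promoters of that length (3.74%). The ETS motif CCGGAAG was present in 12 of 73 (16.4%) and in 6.91% of all, and the YY1 motif ATGGCGG in 5 of 73 (6.85%) and 2.21% of all. None of the 3 motifs contains another. The 150 bases before the start are printed 5′ to 3′ in the direction of transcription, all on the minus strand, with motif matches in capitals: Atp5k (chr5:108434400-108434549) and Atp5e (chr2:174464102-174464251), which encode the small e and epsilon subunits of ATP synthase, Uqcrh (chr4:116075071-116075220), the hinge protein of complex III, and Cox7b2 (chr5:71548206-71548355), an alternative complex IV subunit. Atp5k is shown for an NRF1 match, Atp5e and Uqcrh for ETS matches, and Cox7b2 because none of the 3 motifs was found in it.
Atp5k: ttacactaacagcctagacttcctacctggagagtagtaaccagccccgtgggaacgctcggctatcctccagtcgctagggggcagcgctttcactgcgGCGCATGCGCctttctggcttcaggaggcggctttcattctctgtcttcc
Atp5e: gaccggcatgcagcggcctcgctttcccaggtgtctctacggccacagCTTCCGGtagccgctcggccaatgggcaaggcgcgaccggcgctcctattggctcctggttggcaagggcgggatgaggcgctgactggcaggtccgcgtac
Uqcrh: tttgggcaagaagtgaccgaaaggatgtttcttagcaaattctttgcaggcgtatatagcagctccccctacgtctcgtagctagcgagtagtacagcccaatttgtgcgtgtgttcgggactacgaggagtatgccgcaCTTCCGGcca
Cox7b2: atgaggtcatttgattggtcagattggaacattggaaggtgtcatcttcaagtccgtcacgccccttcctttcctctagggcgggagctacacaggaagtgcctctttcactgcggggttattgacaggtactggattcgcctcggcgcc
The NRF1 match of Atp5k lay 50 to 41 bases before the start, the ETS match of Atp5e 102 to 96 bases before it, and that of Uqcrh 10 to 4 bases before it. Both ETS matches are on the other strand and so read CTTCCGG. These are matches of letters, and binding was not measured.

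The 8 libraries held 109826 barcodes and 67205436 to 234811422 UMIs each, and 97834 nuclei were retained after filters on genes, mitochondrial share and doublets. Libraries shared at most 0.548% of their barcodes. Nuclei were clustered within each region without the members, and the 10 classes described in each region were named by marker genes. Each is called by its likeness, and their counts were summed per library. The vascular classes are described but were not tested. The CA1 list (mean of 3504 CPM against 4108 in oligodendrocyte-like nuclei) and the D1 list (282.5 against 428.1 in oligodendrocyte precursor-like nuclei) were not highest in the class that bears the name, so those names rest on their contrast with the other neurons. Levels are given as CPM, the counts of a gene per 1000000 UMIs of a class in a library, and levels of different genes are not compared. One hippocampal library, 3 months replicate 2, was the deepest (234811422 UMIs) and stood apart for the members as given below. Of the 4 caudate putamen libraries, 3 months replicate 2 carried another version of the authors' counting software (Cell Ranger 7.0.0 against 6.1.2) in its file header.

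The members' summed level was highest by mean in endothelial-like nuclei, with pericyte and smooth muscle-like nuclei next in both regions. By mean it was also higher in microglia-, astrocyte- and oligodendrocyte-like nuclei than in neurons. In the hippocampus the 84 genes together made up 0.440% of the UMIs of endothelial-like nuclei (range over 4 libraries 0.372 to 0.507%). Pericyte and smooth muscle-like nuclei there were at 0.314% (0.256 to 0.388%), an overlapping range, with only 12 nuclei in 1 library. The level was 0.272% in microglia-like nuclei (0.222 to 0.382%) and 0.231% in oligodendrocyte-like nuclei (0.185 to 0.312%). Oligodendrocyte precursor-like nuclei (0.164%, 0.143 to 0.203%) lay among the neurons, with a mean below that of inhibitory interneuron-like nuclei (0.169%) and a range that overlapped dentate granule-like nuclei. The level was 0.155% in dentate granule-like nuclei and 0.122% in CA3 pyramidal-like nuclei (0.112 to 0.132%). The caudate putamen gave the same order at its ends. Endothelial-like nuclei were at 0.423% (0.325 to 0.523%) and overlapped pericyte and smooth muscle-like nuclei at 0.389% (0.322 to 0.478%). D2 medium spiny neuron (MSN)-like nuclei were at 0.165% and D1 MSN-like nuclei at 0.160%. Striatal interneuron-like nuclei (0.208%) lay above the 3 MSN-like classes, with no overlap between their library ranges: the lowest interneuron-like library was at 0.193% and the highest MSN-like library, of the eccentric class, at 0.186%. Ranges overlapped for astrocyte-like (0.274%) and oligodendrocyte-like nuclei (0.274%) of the caudate putamen, while the lowest oligodendrocyte-like library (0.249%) lay above the highest striatal interneuron-like one (0.223%). Oligodendrocyte precursor-like nuclei there (0.200%, 0.175 to 0.229%) overlapped the interneuron-like ones. The classes were drawn from the same libraries, so these levels are described without a test.

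**Figure D1:**
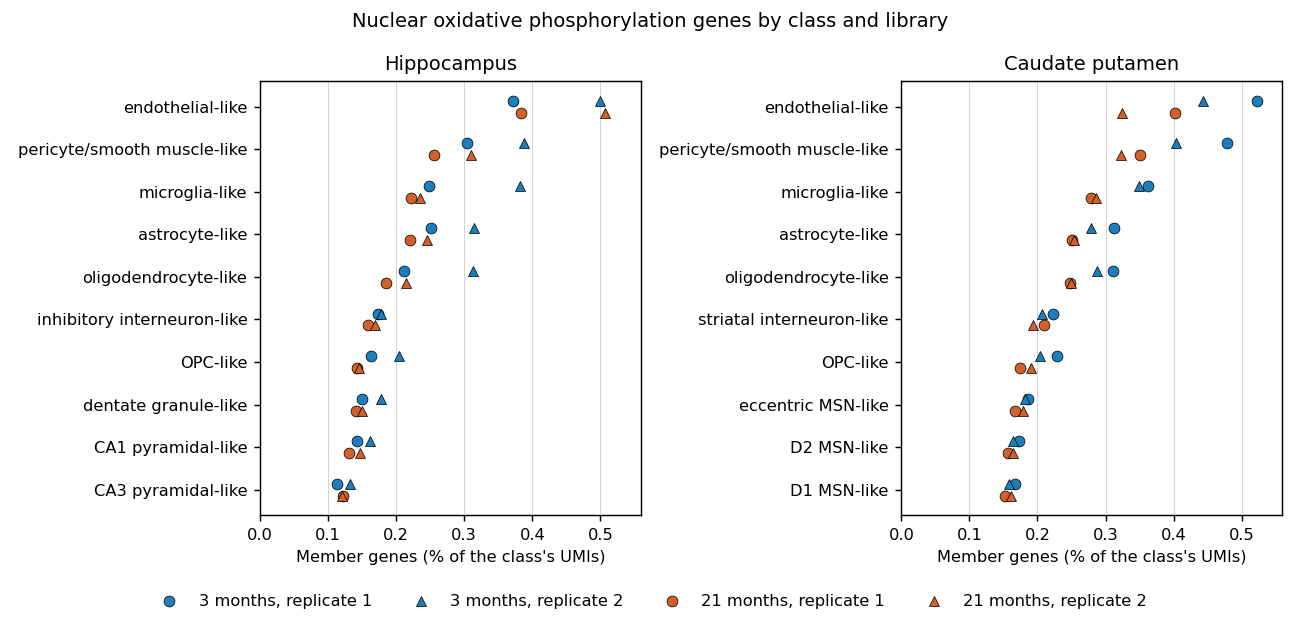
Summed UMIs of the 84 members as a percentage of all UMIs of a class (x axis), for each of 10 classes in each region, with 1 symbol per library (circle replicate 1, triangle replicate 2; blue 3 months, orange 21 months). Endothelial-like nuclei reach 0.507% in the hippocampus and 0.523% in the caudate putamen, while CA3 pyramidal-like nuclei stay at or below 0.132%.

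Counted per nucleus, each neuronal class held more member UMIs than any glial class of its region. Hippocampal inhibitory interneuron-like nuclei held 33.8 member UMIs on average and CA3 pyramidal-like nuclei 32.1, against 7.72 in hippocampal oligodendrocyte-like and 7.82 in microglia-like nuclei. Striatal interneuron-like nuclei held 29.4 and D2 MSN-like nuclei 21.3. Endothelial-like nuclei stayed above the glial classes on this scale too, with 21.6 in the hippocampus and 17.0 in the caudate putamen, and in the hippocampus above dentate granule-like nuclei (18.3). Total UMIs per nucleus ran from 8323 to 27830 in neuronal and from 2181 to 7533 in glial classes of single libraries. Across the 10 classes of each region the summed percentage and the UMIs per nucleus were inversely ranked (Spearman rho -0.82 in the hippocampus and -0.82 in the caudate putamen, as a description over classes that share libraries). The part of depth in the order of the percentages was not tested. Transcripts of the mitochondrial genome, which a clean nucleus should lack, were at most 0.118% of UMIs in any class and library, reached in hippocampal endothelial-like nuclei. They were between 0.00145 and 0.00965% in the neuronal classes. Cytosolic ribosomal protein transcripts averaged 0.927% of UMIs in hippocampal and 0.799% in caudate putamen endothelial-like nuclei, against 0.336 and 0.342% in microglia-like nuclei. The part of carried-over cytoplasmic RNA in the rank of endothelial-like nuclei was not tested.

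A few isoform genes were concentrated in 1 or 2 classes. Ndufa4l2 (an alternative form of the complex IV-associated subunit Ndufa4, annotated at chr10:127514967-127517154 on GRCm38) was at 110, 108, 136 and 71.6 CPM in pericyte and smooth muscle-like nuclei of the 4 caudate putamen libraries (3 months replicates 1 and 2, then 21 months replicates 1 and 2; 16, 19, 32 and 21 UMIs). Endothelial-like nuclei there held 29.2, 0, 16.5 and 39.6 CPM of Ndufa4l2, from 0 to 9 UMIs. The class mean for Ndufa4l2 was 418 times the median over the 10 classes, a ratio that rests on a median of 0.255 CPM, at the level of single UMIs. In the hippocampus Ndufa4l2 was at 48.7, 62.0, 53.7 and 198 CPM in pericyte and smooth muscle-like nuclei, where the last library held only 12 such nuclei and 11 UMIs. Hippocampal endothelial-like nuclei also held it, at 29.4, 21.6, 34.3 and 53.4 CPM (23, 11, 42 and 10 UMIs). Every other class outside the vessels was near 0, with astrocyte-like nuclei at 0 to 2 UMIs of Ndufa4l2 per library in either region. It passed the filter on low counts in none of the classes tested for age or region.

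Cox4i2, the alternative form of the regulatory complex IV subunit Cox4i1, shared this class. It was at 82.7, 28.4, 93.5 and 40.9 CPM in caudate putamen pericyte and smooth muscle-like nuclei (12, 5, 22 and 12 UMIs) and at 24.4, 88.6, 57.5 and 71.9 CPM in those of the hippocampus (4, 10, 15 and 4 UMIs). Hippocampal endothelial-like nuclei held 15.4, 15.7, 15.5 and 16.0 CPM of Cox4i2 (12, 8, 19 and 3 UMIs). The common form Cox4i1 stood at 96.4, 91.0, 93.5 and 88.7 CPM in the same caudate putamen nuclei, so both forms were present there. Cox6a2, an isoform best known from heart and skeletal muscle, was highest in striatal interneuron-like nuclei at 7.65, 5.87, 5.75 and 4.31 CPM (32, 33, 21 and 20 UMIs). No library of another caudate putamen class reached the lowest of these Cox6a2 values; oligodendrocyte-like nuclei, the next highest by mean, reached 2.62 CPM. Both 21-month libraries lay below both 3-month ones for Cox6a2 in striatal interneuron-like nuclei, but the difference did not pass the test (log2 fold change -0.42, SE 0.31, edgeR adjusted p = 0.67).

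Cox6b2, described as a testis isoform, was at 9.37, 6.97, 10.2 and 11.5 CPM in caudate putamen astrocyte-like nuclei and at 8.66, 7.63, 9.59 and 8.71 CPM in those of the hippocampus. Its mean was higher in pericyte and smooth muscle-like nuclei of the caudate putamen (17.1 CPM), but from 0 to 5 UMIs a library, so the ranges overlap. Cox7b2 was less concentrated. It was at 15.0, 15.7, 16.1 and 14.8 CPM in hippocampal astrocyte-like nuclei, whose 4 libraries differed little. Caudate putamen D2 MSN-like nuclei held it at 11.7, 12.6, 9.12 and 8.11 CPM, and it passed the filter on low counts in 10 pairs of class and region. The isoform genes Cox8b, Cox8c and Ndufa4l2 were the 3 members that passed the count filter in no tested class, and 81 of 84 passed it in at least 1.

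**Figure D2:**
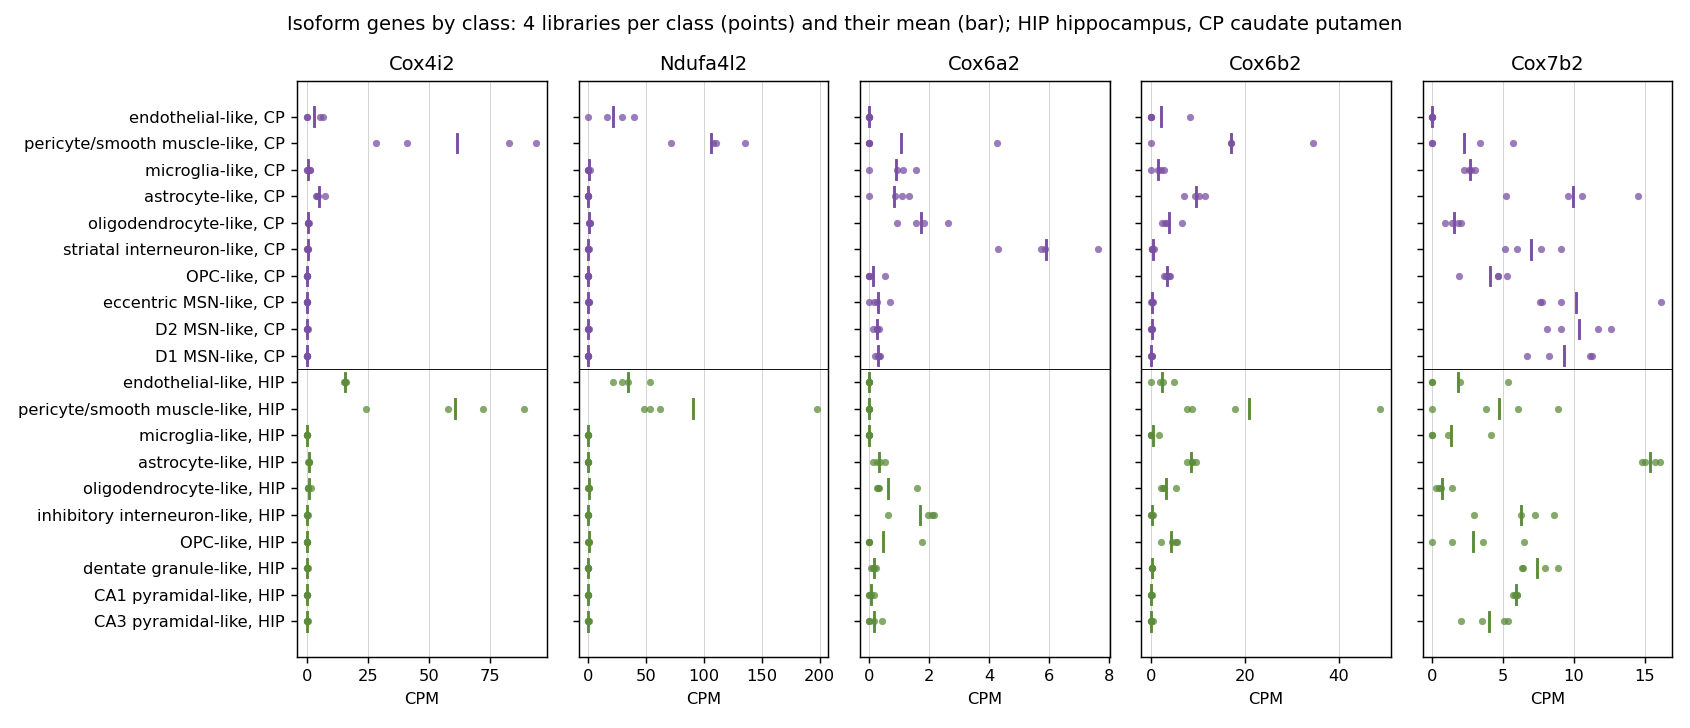
CPM (x axis of each panel, with its own scale) of Cox4i2, Ndufa4l2, Cox6a2, Cox6b2 and Cox7b2 in every class, with 1 point per library and a bar at the mean of 4 libraries (purple caudate putamen, CP; green hippocampus, HIP). Cox4i2 and Ndufa4l2 stand highest in pericyte and smooth muscle-like nuclei and Cox6a2 in striatal interneuron-like nuclei.

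The common subunits with the widest spread between classes were highest in endothelial-like nuclei of both regions. Uqcrb, a complex III subunit that binds ubiquinone, averaged 66.9 CPM there in the hippocampus (lowest library 47.4), against 17.8 CPM in microglia-like nuclei, the next class (highest library 35.8). Atp5e averaged 56.4 CPM in hippocampal endothelial-like nuclei (lowest library 38.4) against 14.1 in microglia-like nuclei, the next class (highest library 18.5). Cox6b1, a complex IV subunit facing the intermembrane space, averaged 83.6 CPM in the same nuclei (lowest library 76.8) and at most 45.5 in any library of the next class. In the caudate putamen Ndufb7 (67.1 CPM) and Atp5j (89.1 CPM) also had their highest mean in endothelial-like nuclei, but their libraries overlapped those of pericyte and smooth muscle-like nuclei. Hippocampal pericyte and smooth muscle-like nuclei fell under 20 in 1 library and were not ranked for single members.

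In the caudate putamen the members' summed level was lower at 21 months in 8 of 10 classes without overlap between the ages, and overlapped in the other 2. Oligodendrocyte-like nuclei were at 0.311 and 0.287% in the 3-month libraries and at 0.249 and 0.250% in the 21-month libraries. Microglia-like nuclei were at 0.362 and 0.349% against 0.278 and 0.286%, and endothelial-like nuclei at 0.523 and 0.444% against 0.403 and 0.325%. D2 MSN-like nuclei were at 0.173 and 0.165% against 0.157 and 0.164%, where the middle values nearly met. D1 MSN-like nuclei overlapped (0.167 and 0.158% against 0.152 and 0.161%), as did striatal interneuron-like nuclei. The ratio of the 21-month to the 3-month mean ran from 0.752 in endothelial-like to 0.965 in D1 MSN-like nuclei, whereas in hippocampal endothelial-like nuclei it was 1.02 with overlap of the ages. With 2 libraries an age no exact test of a single sum can pass 0.05, so none is given. UMIs per nucleus were also lower at 21 months, without overlap of the ages, in every caudate putamen class but the astrocyte-like and endothelial-like ones. D2 MSN-like nuclei held 12682 and 9665 at 21 months, against 13944 and 15414 at 3 months. Oligodendrocyte-like nuclei held 2968 and 2574, against 3255 and 3692. The part of depth in the age difference was not tested. The 3-month library counted with version 6.1.2 was above both 21-month libraries in each of the 10 classes.

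Tested gene by gene (edgeR quasi-likelihood test on summed counts, Benjamini-Hochberg over all genes of a class, threshold 0.05), 12 of 617 pairs of member and class passed in the caudate putamen, all lower at 21 months. Across all genes and the same 8 classes 0.612% of pairs were called lower. Of the 617 member values 484 were below 0, where 48.5 to 51.46% of all genes were by class. D2 MSN-like nuclei held 10 of the 12, that is 10 of 79 members tested (12.7%), against 2.75% of all genes called lower in that class. The other classes gave 1 of 77 in oligodendrocyte-like (0.572% of all genes), 1 of 74 in microglia-like nuclei (0.148%) and 0 in the remaining 5. The microglia-like call, Ndufa3, entered the test through the young libraries, where it is high, and is a description only. In those 5 the share of all genes called lower was 0.16% in astrocyte-like, 0.134% in oligodendrocyte precursor-like, 0.31% in D1 MSN-like, 0.0% in eccentric MSN-like and 0.14% in striatal interneuron-like nuclei.

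In D2 MSN-like nuclei, GABAergic projection neurons of the indirect pathway, 5 of the 10 members that fell belong to ATP synthase. Atp5e was at 7.20 and 6.45 CPM at 3 months and at 3.53 and 3.92 CPM at 21 months, the largest change of the 10 (log2 fold change -0.89, SE 0.13, edgeR adjusted p = 0.0193). Atp5k was at 12.9 and 11.6 against 8.11 and 8.97 CPM (log2 fold change -0.54, SE 0.10, adjusted p = 0.0326). Atp5g1, one of 3 genes for the proton-carrying c subunit, was at 17.4 and 16.9 against 12.8 and 13.3 CPM (log2 fold change -0.41, SE 0.08, adjusted p = 0.0352). Atp5g3, another c-subunit gene, and Atp5d, the delta subunit of the catalytic head, also fell, by 0.43 and 0.42 on the log2 scale. For each of these 5 genes both 21-month libraries lay below both 3-month libraries.

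The other 5 belong to complexes I, III and IV. Ndufa1, a small membrane subunit of complex I encoded on the X chromosome, was at 8.76 and 8.26 against 5.22 and 5.48 CPM (log2 fold change -0.69, SE 0.11, edgeR adjusted p = 0.0231). Cox6c, a small complex IV subunit, was at 26.6 and 25.2 against 19.1 and 19.9 CPM (log2 fold change -0.43, SE 0.07, adjusted p = 0.0257). Cox5b, Cox7b2 and Uqcrb fell by 0.46, 0.52 and 0.45 on the log2 scale. All 10 fell by less than 1 on that scale. No library overlapped for these genes, which were picked by the test, and 24.9% of all genes in the class were lower without overlap. The count rests on every caudate putamen library: without any 1 of the 4, 0 or 1 pairs of member and class in that region passed the test, of the 12.

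The same 10 genes were also below 0 in D1 MSN-like nuclei, the direct-pathway neurons, at log2 fold changes of -0.75 to -0.25. In 9 of them both 21-month libraries were below both 3-month ones, as in 22.0% of all genes of that class. The 10 genes were picked by their fall in D2 MSN-like nuclei of the same 4 libraries, so D1 MSN-like nuclei are not an independent check. Their lowest adjusted p in D1 MSN-like nuclei was 0.0614 (edgeR), so none passed. The difference between the age effects of D2 and D1 MSN-like nuclei, fitted with each library as a block, passed for 0 of 80 members (1 at an unadjusted p under 0.05, and 0 without the block; DESeq2 was not run on it); 0.104% of all genes passed in either direction. For the 10 genes that difference lay between -0.20 and 0.10 on the log2 scale. An age effect particular to D2 MSN-like nuclei was therefore not shown.

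**Figure D3:**
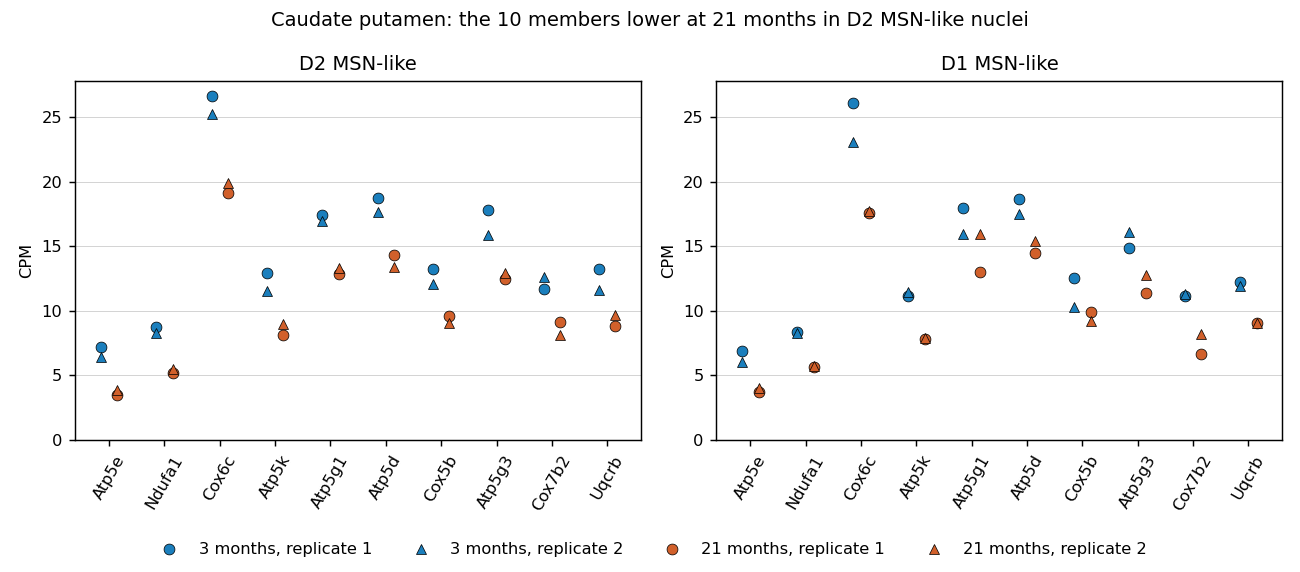
CPM (y axis) of the 10 members that fell with age in D2 MSN-like nuclei, in D2 (left) and D1 MSN-like nuclei (right), with 1 symbol per library (blue 3 months, orange 21 months). In D2 MSN-like nuclei no 21-month symbol reaches a 3-month one for any of the 10, and in D1 MSN-like nuclei this holds for 9. Of all genes, 24.9% in D2 and 22.0% in D1 MSN-like nuclei were lower without overlap.

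In caudate putamen glia 2 members passed the test. Atp5md, a small subunit that stabilises ATP synthase (chr19:47083464-47090647), was at 47.2 and 47.5 CPM at 3 months and at 24.8 and 24.3 CPM at 21 months in oligodendrocyte-like nuclei. It fell by 0.90 on the log2 scale (SE 0.20, edgeR adjusted p = 0.0489). Ndufa3, an accessory subunit of complex I, was at 40.4 and 37.2 against 14.5 and 12.3 CPM in microglia-like nuclei, from 27, 71, 16 and 11 UMIs, and fell by 1.49 (SE 0.35, adjusted p = 0.0495). For both genes the ages did not overlap, both adjusted values lie close to the threshold, Ndufa3 reached the level of the count filter in only 1 of the 2 old libraries and so was tested through the young ones, and both genes overlap another gene on the opposite strand.

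The direction was shared by most members. In caudate putamen oligodendrocyte-like nuclei 69 of 77 members were below 0 with a median of -0.22, against a median of 0.01 for all genes tested. In both 21-month libraries 59 of the 77 (76.6%) lay below both 3-month libraries, against 29.2% of all genes. The median was -0.26 in astrocyte-like nuclei (46 of 79 without overlap, 22.7% of all genes) and -0.29 in microglia-like nuclei (43 of 74, 22.7%). It was -0.13 in D2 (38 of 79, 24.9%) and -0.12 in D1 MSN-like nuclei (34 of 79, 22.0%). It was -0.19 in oligodendrocyte precursor-like (29 of 74, 22.9%) and -0.18 in striatal interneuron-like nuclei (33 of 78, 22.8%). The smallest share without overlap was in eccentric MSN-like nuclei, with 25 of 77 (32.5%) against 21.2% of all genes. All 8 medians stayed below 0 with each caudate putamen library left out, under upper-quartile and DESeq2 scaling, and with the trend on gene length removed.

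**Figure D4:**
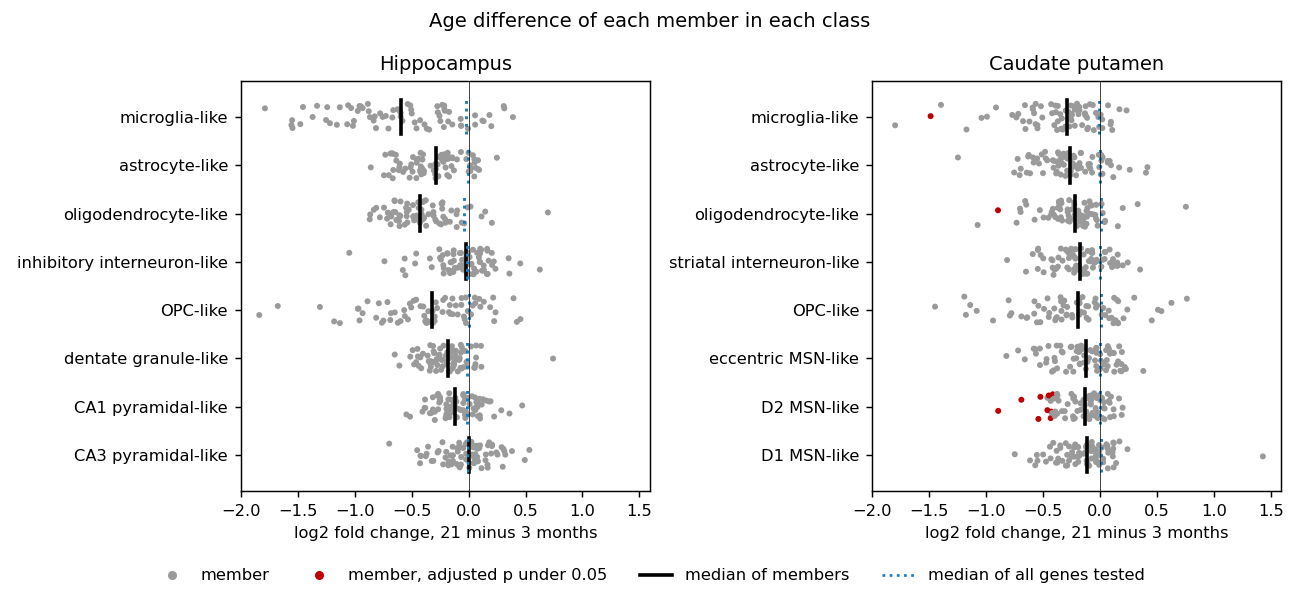
Log2 fold change from 3 to 21 months (x axis) of every tested member in each class (grey points, red where the edgeR adjusted p is under 0.05), with the median of the members (black bar) and of all genes tested (dotted line). The members' median lies left of that of all genes in every class but CA3 pyramidal-like nuclei, where it is 0.01.

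In the hippocampus no member passed in any of 8 classes, 0 of 615 pairs (edgeR), where 1.21% of all pairs of gene and class were called in either direction. DESeq2 called 0, and 51 passed without the filter on low counts. At an unadjusted p under 0.05 (edgeR) there were 113 pairs, all lower at 21 months. Many other genes passed that level too. It was passed by 31 of 77 members and 2421 of 13997 genes in oligodendrocyte-like nuclei. The counts were 19 of 80 and 3280 of 17999 in dentate granule-like nuclei, and 0 of 77 and 767 of 12488 in CA3 pyramidal-like nuclei. Still 470 of the 615 values were below 0, where 49.97 to 55.02% of all genes were by class. The members' medians were -0.43 in oligodendrocyte-like (72 of 77 below 0), -0.60 in microglia-like and -0.18 in dentate granule-like nuclei (71 of 80). Both 21-month libraries lay below both 3-month ones for 42 of 79 members in astrocyte-like (30.0% of all genes), 41 of 80 in dentate granule-like (33.0%), 37 of 77 in oligodendrocyte-like (28.3%), 34 of 74 in microglia-like (19.8%) and 26 of 74 in oligodendrocyte precursor-like nuclei (25.1%). In the other hippocampal neurons the members' share was under that of all genes, at 23 of 77 in CA1 pyramidal-like (32.9% of all genes), 19 of 77 in inhibitory interneuron-like (28.1%) and 13 of 77 in CA3 pyramidal-like nuclei (23.5%). The sizes depend on 3 months replicate 2, which was the highest of the 4 libraries in the members' summed level in 9 of 10 classes. Hippocampal oligodendrocyte-like nuclei were at 0.212 and 0.312% at 3 months and at 0.185 and 0.214% at 21 months, so the ages overlapped. The summed level was lower at 21 months without overlap in microglia-, astrocyte-, oligodendrocyte precursor- and inhibitory interneuron-like nuclei, and overlapped in the other classes. The library of 3 months replicate 2 exceeded replicate 1 by 1.47 times in the members and by 1.74 times in cytosolic ribosomal protein genes of oligodendrocyte-like nuclei, and by 1.54 and 1.85 times in microglia-like nuclei. Without it the medians were -0.12 in oligodendrocyte-like, -0.12 in microglia-like, -0.10 in astrocyte-like and -0.05 in dentate granule-like nuclei, and above 0 in the CA1 (0.03), CA3 (0.13) and inhibitory interneuron-like classes (0.03). With replicate 1 of 3 months left out instead, more pairs passed, all lower. That fit rests on 1 young library, and the share of all genes called in it is not given.

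**Figure D5:**
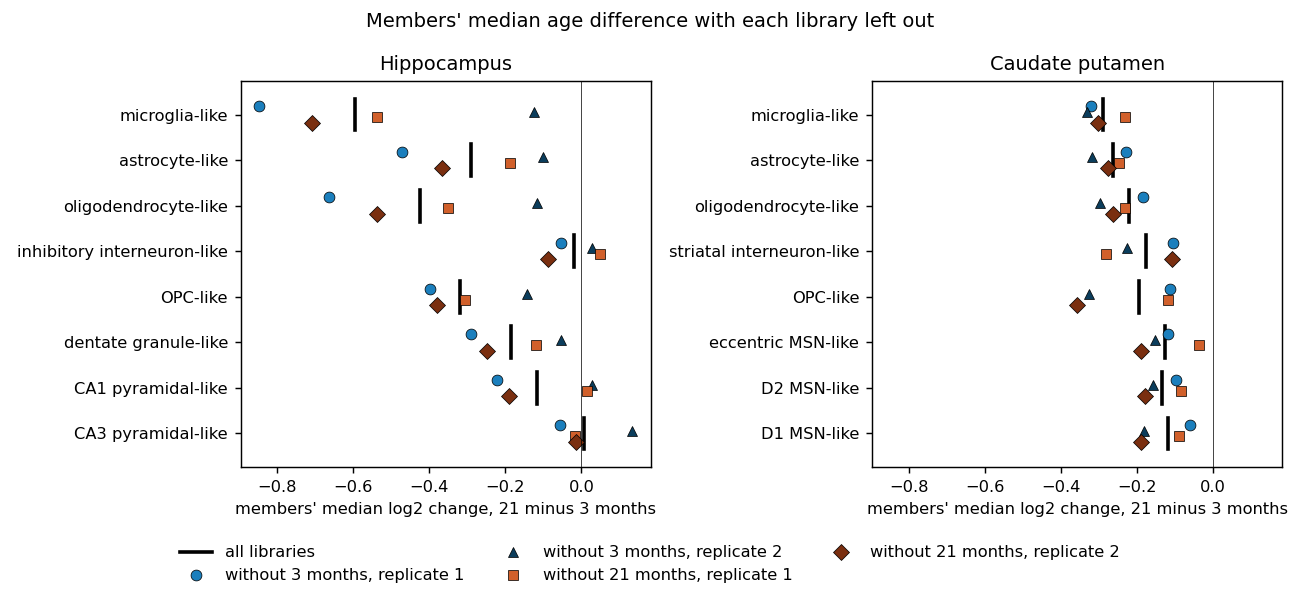
Median log2 fold change of the members from 3 to 21 months (x axis) in each class with all libraries (bar) and with each of the region's 4 libraries left out (symbols). In the hippocampus the triangle, without 3 months replicate 2, moves from -0.60 to -0.12 in microglia-like nuclei, and in the caudate putamen every symbol stays below 0.

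Glial classes present in both regions allowed the mean age effect over the regions to be tested. It called 17 of 304 pairs of member and class, all lower at 21 months, and over all genes 1.24% of pairs were called lower. Of the 304 values 272 were below 0, where 50.69 to 54.41% of all genes were by class. Oligodendrocyte-like nuclei held 7 of 77 members (9.09%, against 2.34% of all genes called lower), astrocyte-like nuclei 6 of 79 (7.59%, against 1.17%), oligodendrocyte precursor-like nuclei 3 of 74 (against 0.822%) and microglia-like nuclei 1 of 74 (against 0.286%), which is Ndufa3 and again a description only. DESeq2 called 5 pairs, 75 passed without the filter on low counts and 6 with the length trend removed. Of the 17, those that also passed by DESeq2 were Atp5k, Atp5md and Cox7b in oligodendrocyte-like and Cox6c in astrocyte-like nuclei. The count without a single library ran from 0 (without hippocampus, 21 months replicate 1) to 102 (without hippocampus, 3 months replicate 1). It was 3 without hippocampus, 3 months replicate 2, 11 without hippocampus, 21 months replicate 2, and 2, 7, 5 and 9 without caudate putamen 3 months replicates 1 and 2 and 21 months replicates 1 and 2.

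In oligodendrocyte-like nuclei Atp5md was at 21.2 and 41.1 CPM at 3 months and at 15.9 and 17.8 CPM at 21 months in the hippocampus, beside the caudate putamen values above. In each region both old libraries were below both young ones, and the mean effect was -0.88 (SE 0.16, edgeR adjusted p = 0.00814). Atp5k, Atp5mpl (a small membrane subunit of ATP synthase), Cox7b (a small complex IV subunit) and Uqcrh fell by 0.72, 0.56, 0.50 and 0.47 on the log2 scale. In astrocyte-like nuclei Cox6c had the smallest adjusted p and fell from 38.3 and 57.4 to 28.4 and 29.0 CPM in the hippocampus and from 62.8 and 56.9 to 39.2 and 40.1 CPM in the caudate putamen (mean effect -0.63, SE 0.11, edgeR adjusted p = 0.0106). Ndufa1, Ndufa3, Atp5md and the complex I membrane subunit Ndufc2 fell by 0.93, 0.69, 0.55 and 0.39 there. In oligodendrocyte precursor-like nuclei the 3 called members were all complex IV subunits: Cox7b, Cox7c and Cox6c fell by 0.92, 0.55 and 0.76. Cox7b overlapped between the ages in the hippocampal precursors (23.4 and 40.2 against 9.58 and 28.6 CPM). In microglia-like nuclei Ndufa3 alone passed and fell by 1.28, at 17.6 and 22.8 against 12.4 and 7.14 CPM in the hippocampus (10, 21, 6 and 4 UMIs), and 1 of the 4 old libraries reached the filter level.

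The age effects of the 2 regions were not shown to differ for any member. The difference passed for 0 of 304 pairs (edgeR; 10 at an unadjusted p under 0.05; DESeq2 called 0), and for 0.0101% of all pairs. Atp5md in oligodendrocyte-like nuclei gave a difference of -0.03 (SE 0.32).

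By complex, the median with age was below 0 in all 16 pairs of class and region for complexes III and IV and in 14 of 16 for complexes I and V. The 8 classes of a region share its 4 libraries, so the 16 pairs, here and below, are not independent. The share of all genes below 0 in as many pairs is not given. Without hippocampus, 3 months replicate 2, it was below 0 in 12 of 16 for complex III and in 13 of 16 for each of complexes I, IV and V. In oligodendrocyte-like nuclei all 17 tested members of complex V and all 8 of complex III were below 0 with age in either region, with caudate putamen medians of -0.27 and -0.27. In caudate putamen D2 MSN-like nuclei 12 of 17 members of complex V, 12 of 14 of complex IV, 7 of 8 of complex III and 29 of 36 of complex I were below 0. For the 4 succinate dehydrogenase genes of complex II the median was below 0 in 5 of 16 pairs, from -0.11 in caudate putamen microglia-like to 0.42 in hippocampal oligodendrocyte precursor-like nuclei. Its genes differed among themselves: Sdhd, a membrane anchor subunit, was below 0 in 11 of 12 pairs with a median of -0.20, whereas the flavoprotein gene Sdha was below 0 in 3, Sdhc in 4 and Sdhb in 6 of 16. With at most 4 genes, and none called, complex II was not tested against the others.

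For the 9 core subunits reported here, most of which carry or hold the catalytic centres, 0 of 144 pairs passed the age test (edgeR). At an unadjusted p under 0.05 there were 19, a level that many other genes passed too. By class it was passed by 767 of 12488 genes in hippocampal CA3 pyramidal-like nuclei, the lowest count, to 4113 of 17338 in D2 MSN-like nuclei, the highest. Over all genes 0.612% of pairs were called lower in the caudate putamen and 1.21% were called in the hippocampus, so a count of 0 here is near the share of all genes. Uqcrfs1, the Rieske iron-sulphur protein of complex III, was below 0 in 16 of 16 pairs of class and region, with a median of -0.31, and in 11 of 16 without hippocampus, 3 months replicate 2. In D2 MSN-like nuclei Uqcrfs1 was at 6.58 and 5.89 CPM at 3 months and at 4.797 and 4.649 CPM at 21 months (log2 fold change -0.42, SE 0.12, edgeR adjusted p = 0.0973). Atp5b, the catalytic beta subunit of ATP synthase, and Ndufv1, the NADH-binding subunit of complex I, were below 0 in 15 of 16 pairs each (13 each without that library), with medians of -0.23 and -0.25. Uqcrc1 (median -0.17) and Cox5a (-0.18) were below 0 in 14 and 12 of 16, or 12 and 9 without that library.

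Ndufs1, the largest iron-sulphur subunit of complex I, and Sdha, the flavoprotein of succinate dehydrogenase, lay near or above 0. Ndufs1 was below 0 in 2 of 16 pairs and Sdha in 3 of 16, with medians of 0.07 and 0.08. In D2 MSN-like nuclei Ndufs1 was at 65.1 and 64.9 CPM at 3 months and at 69.8 and 69.7 CPM at 21 months (log2 fold change 0.08, SE 0.06). Sdha was at 55.5 and 53.4 against 60.1 and 60.1 CPM (log2 fold change 0.12, SE 0.06), with both old libraries above both young ones and an edgeR adjusted p of 0.26. Atp5a1 (median -0.03) and Sdhb (0.04) lay near 0 over the classes.

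The members that were lower with age tended to be the short genes. The median genomic length of members was 7196.5 bp, against 12268 bp for all annotated genes, from 953 bp (Cox6a2) to 105382 bp (Cox7b2). Across the 79 members tested in D2 MSN-like nuclei, length and the age effect had a Spearman rho of 0.56, against 0.13 across all 17325 genes with a length; genes are not independent replicates and share the libraries. The rho ran from 0.20 to 0.56 over the 8 caudate putamen classes and from 0.22 to 0.53 over the 8 hippocampal ones (all genes 0.09 to 0.27 and 0.08 to 0.25). In D2 MSN-like nuclei 37 of the 38 shorter members were below 0 (median -0.24), against 25 of the 41 longer ones (median -0.05). In caudate putamen oligodendrocyte-like nuclei the counts were 36 of 37 (-0.33) and 33 of 40 (-0.15). Uqcrfs1 (5055 bp) is short, and Ndufs1 (33238 bp) and Sdha (28027 bp) are long. Cox7b2, the longest member, fell all the same in D2 MSN-like nuclei. Cox6b2, short at 1303 bp, went the other way: it was below 0 in 0 of 5 tested pairs (median 0.70), with 0 called. With each library's trend of counts on gene length removed, 6 pairs passed in the caudate putamen in place of 12, and 6 for the mean of both regions in place of 17.

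Between regions, members were higher in caudate putamen than in hippocampal glia in 16 of 304 pairs and lower in 2 (edgeR). Of all pairs of gene and class 7.11% were called higher and 5.18% lower. Both shares of the members were under those of all genes, so these counts are not read as particular to the members. The 16 include Cox4i2 in astrocyte-like and Ndufb10 in oligodendrocyte precursor-like nuclei. Both entered the test through the caudate putamen, where they are high, and are descriptions only. The count of 18 was unstable: it was 9 by DESeq2, 44 with doublets retained and 37 at clustering resolution 2.0, and ran from 5 to 65 with 1 library left out (65 without hippocampus, 3 months replicate 2). In oligodendrocyte-like nuclei 9 of 77 (11.7%) were called higher, against 7.87% of all genes, with a median difference of 0.23. Uqcrb there was at 15.1, 23.1, 10.2 and 13.97 CPM in the 4 hippocampal and at 29.9, 28.1, 21.0 and 22.3 CPM in the 4 caudate putamen libraries, with overlap of 1 hippocampal library (log2 fold change 0.69, SE 0.15, edgeR adjusted p = 0.00683). Atp5l, Atp5k, Atp5o and Ndufa5 were higher by 0.46, 0.59, 0.43 and 0.56. In astrocyte-like nuclei 3 of 79 were higher (3.8%) and 2 lower (2.53%), against 11.1 and 9.53% of all genes.

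Cox4i2 in astrocyte-like nuclei was at 1.02, 1.07, 0.360 and 1.06 CPM in the hippocampal libraries (8, 9, 3 and 4 UMIs) and 4.14, 4.46, 7.25 and 3.83 CPM in those of the caudate putamen (19, 16, 46 and 17 UMIs). No hippocampal library reached the level of the filter on low counts (1.83 CPM) and all 4 of the caudate putamen did. Cox4i2 thus entered the test only through the region where it is high, and its call (log2 fold change 2.59, SE 0.37, edgeR adjusted p = 0.000201) is given as a description. Both levels lie below that of Cox4i2 in pericyte and smooth muscle-like nuclei, given above. Ndufa4l2, which marked the same vascular nuclei, had 0 to 2 UMIs per library in astrocyte-like nuclei of either region. The 8 pericyte and smooth muscle markers summed to 109 to 127 CPM in hippocampal and 143 to 201 CPM in caudate putamen astrocyte-like nuclei, without overlap, against a mean of 5955 CPM in the caudate putamen class of that name, with at most 1 of the 8 at 0 in an astrocyte-like library. Their part in the Cox4i2 values was not tested. Ndufc2 was lower in caudate putamen astrocyte-like nuclei, at 49.5, 43.5, 33.6 and 27.5 CPM against 62.6, 70.7, 54.4 and 57.6 CPM in the hippocampus (log2 fold change -0.72, SE 0.09, edgeR adjusted p = 9.91e-05), again without overlap; the gene shares a stretch of its own strand with another gene, so reads of the 2 cannot be told apart. Cox7b2 was lower by a log2 fold change of -0.72 and Uqcrq and Cox6c were higher by 0.47 and 0.37. In oligodendrocyte precursor-like nuclei Atp5j2 and Ndufb10 were higher (2 of 74 or 2.7%, against 2.84% of all genes). Ndufb10 reached the filter level there in only 1 hippocampal library and entered the test through the caudate putamen, so its call is a description only. In microglia-like nuclei Ndufb10 and Atp5k were higher (2 of 74 or 2.7%, against 4.61%). Each library came from 1 region, so the regions and their library preparations cannot be told apart.

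Related lists show what accompanied the members. Of the assembly factors of the complexes, 4 of 338 pairs fell in the caudate putamen and 0 rose, where 0.612% of all pairs of gene and class were called lower; 3 of the 4 were in D2 MSN-like nuclei, where 2.75% of all genes were. Ndufaf4, which helps to build complex I, was at 37.1 and 37.8 CPM at 3 months and at 25.7 and 24.5 CPM at 21 months in D1 MSN-like nuclei (log2 fold change -0.60, SE 0.08, edgeR adjusted p = 0.0399), and fell by 0.57 in D2 MSN-like nuclei. Cox17, a copper chaperone of complex IV, and Pet100 fell in D2 MSN-like nuclei by 0.52 and 0.56. Cytosolic ribosomal protein genes, a comparison list of short and abundant transcripts, were below 0 in 467 of 659 pairs in the caudate putamen. There 7 were called lower, against the same 0.612%, and 1 higher. All 7 were among 84 tested in D2 MSN-like nuclei, where 2.75% of all genes were called lower. The list's median there was -0.14, beside -0.13 for the members, which fell more than the list in the other caudate putamen classes. In the hippocampus 604 of 654 were below 0 (1 lower). Medians there were -0.50 in oligodendrocyte-like, -0.45 in astrocyte-like and -0.26 in dentate granule-like nuclei, beside -0.43, -0.29 and -0.18 for the members. In microglia-like nuclei the list's median was -0.46, beside -0.60. Genes of the tricarboxylic acid cycle gave 0 calls with age in either region (0 of 126 and 0 of 127 pairs). Regulators of mitochondrial biogenesis gave 2 calls in 121 pairs in the hippocampus, where 1.21% of all pairs were called, and 0 in 122 in the caudate putamen. Both calls were Esrrg, an orphan nuclear receptor. It rose in hippocampal astrocyte-like nuclei from 23.1 and 35.99 to 53.8 and 65.2 CPM (log2 fold change 1.07, SE 0.19, edgeR adjusted p = 0.0416), and in dentate granule-like nuclei by 0.37.

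The mitochondrial genome itself showed no call with age (0 of 60 pairs in the caudate putamen and 0 of 61 in the hippocampus). Its values, which also mark the cleanness of a nuclear preparation, lay on opposite sides in the regions: 50 of 60 were below 0 in the caudate putamen and 10 of 61 in the hippocampus, and the difference in age effect was below 0 in 24 of 25 glial pairs with 0 called. Their part in the members' age differences was not tested. Between regions 13 of 25 pairs were lower in caudate putamen glia and 0 higher, where 5.18% of all pairs were called lower. Mitochondrial transcripts were 0.00923, 0.0101, 0.0107 and 0.0145% of UMIs in the hippocampal and 0.00628, 0.00850, 0.00586 and 0.00443% in the caudate putamen oligodendrocyte-like nuclei, without overlap. Among glycolysis genes 13 of 66 pairs were higher and 5 lower in the caudate putamen, against 7.11 and 5.18% of all pairs.

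Marker genes of neurons were counted in the glial classes. Whether these reads came from neighbouring cells was not tested. The 6 MSN markers together were at 1744 to 1798 CPM in 3-month and 1595 to 2257 CPM in 21-month oligodendrocyte-like nuclei of the caudate putamen, against 640 to 688 CPM over the hippocampal libraries, and none of the 6 was at 0 in caudate putamen glia. In caudate putamen microglia-like nuclei the list was at 1938 to 2042 and 1614 to 2683 CPM, and in astrocyte-like nuclei at 2087 to 2144 and 1957 to 2175 CPM. For this list the ages overlapped in each of the 3 caudate putamen classes, whereas the regions did not. Some other lists did not overlap between ages. Over 4 glial classes and the lists of other cells, old libraries lay above the young for 4 and below for 2 of 14 pairs of class and list in the caudate putamen, and for 2 and 6 of 14 in the hippocampus. The 8 astrocyte markers in caudate putamen oligodendrocyte-like nuclei were at 300.4 to 362 CPM at 3 months and 478 to 557 CPM at 21 months, and in microglia-like nuclei at 520.5 to 546 and 603 to 754 CPM. The 6 dentate granule markers in hippocampal oligodendrocyte-like nuclei were at 993 to 1052 and 842 to 866 CPM, and in astrocyte-like nuclei at 616 to 723 and 505 to 540.5 CPM. The 9 oligodendrocyte markers in caudate putamen oligodendrocyte-like nuclei themselves were at 14540 to 14850 CPM at 3 months and 12400 to 14350 CPM at 21 months. D1 and D2 MSN-like nuclei had a lower member percentage (0.152 to 0.173%) than any library of these glial classes in the caudate putamen (lowest 0.175%, in oligodendrocyte precursor-like nuclei). Hippocampal oligodendrocyte precursor-like nuclei (0.143 to 0.203%) overlapped that range. The part of such RNA in the members' differences between ages and regions was not tested.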

How the data were processed

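Single nuclei of 8 libraries were analysed from the authors' deposited matrices of whole-number UMI counts per gene and nucleus. Counts were made with Cell Ranger 4.0.0 on mm10 per the submitters' processing notes, whereas the file headers name version 6.1.2 in 7 libraries and 7.0.0 in 1 (caudate putamen, 3 months replicate 2). Whether intronic reads were counted is not given in the sources used here, and in nuclei it sets how far gene length enters a count. Libraries held 67205436 to 234811422 UMIs. Counting error limits members with few UMIs in a class, and these UMIs are given beside only some of the values. They are not given for the common subunits in endothelial-like nuclei. That class held 38 to 204 nuclei a library in the hippocampus and 43 to 112 in the caudate putamen.

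Nuclei with under 500 genes (1307) or over 5% mitochondrial UMIs (3) were removed, and 10682 doublets were called by Scrublet per library. Where its automatic share was more than 3 times away from the expected share, in either direction, the expected share was used; this rule was set after the shares were seen and applied to hippocampus, 3 months replicate 2. Each region was clustered with scanpy 1.11.5 (3000 variable genes without members and mitochondrial genes, 40 components, 20 neighbours, Leiden resolution 1.0). Clusters were named from marker lists by a score revised after the class tables were seen and before any expression test, and 4363 hippocampal and 6910 caudate putamen nuclei stayed unnamed. Counts were summed per class and library and tested for all genes with edgeR 4.0.16 (quasi-likelihood, TMM, filterByExpr, R 4.3.3), with Benjamini-Hochberg adjustment and a threshold of 0.05. Glial classes were fitted over all 8 libraries, neuronal classes within their region, and the D2 against D1 difference with each library as a block. Fold changes are 21 over 3 months, or caudate putamen over hippocampus. Each SE was derived from the edgeR test, as the absolute log2 fold change over the square root of the F statistic. It restates the test and is not a separate measure of spread.

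Named were the 5 called members with the smallest adjusted p per comparison, class and direction, a core set (1 of its genes is not reported here) and an isoform set whatever their values, and members with the largest ratio of the highest class to the median of the classes. Members and lists were chosen with earlier results of these data known. All 10 members called in D2 MSN-like nuclei, the pathway genes and the promoters printed were picked after their values were seen. On simulated counts the test recovered 76.5% of 2-fold and 99% of 4-fold changes in caudate putamen D2 MSN-like sums (17342 genes). The spread of these counts was set by a formula and not taken from the libraries. All 10 members called in D2 MSN-like nuclei changed by less than 2-fold, a size that was not simulated. Gene lengths and overlaps came from GENCODE on GRCm38, matched for 32235 of 32285 genes; 38 of 84 members overlap another gene, 12 of them on the same strand. Alternatives were DESeq2 1.42.0, upper-quartile scaling, no filter, removal of the length trend, retained doublets, resolutions of 0.5 and 2.0, a mitochondrial limit of 1%, a replicate block, each region fitted alone and each library left out.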

Additional observations from a re-analysis of the deposited data

How the results depend on the processing

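Of 47 member, class and comparison results that passed the test, 805 alternatives reversed 0, kept 513 past the threshold and lost 292 (50 of the 513 could not differ, since D2 MSN-like nuclei were fitted within the caudate putamen alone; of the other 755, 463 were kept); 3 passed under every alternative run, the regional differences of Cox4i2 and Ndufc2 in astrocyte-like and of Uqcrb in oligodendrocyte-like nuclei, of which Cox4i2 reached the level of the count filter in the caudate putamen libraries only. Hippocampal age calls (0) rose to 51 without the filter on low counts and 1 with doublets retained, and ran from 0 to 101 with 1 library left out. Caudate putamen age calls (12) were 44 without the filter and 6 with the length trend removed, and ran from 0 to 22 with 1 library left out (22 and 21 without hippocampus, 3 months replicates 1 and 2, which enter the spread of the glial fits). Calls for the mean of both regions (17) were 5 by DESeq2, 75 without the filter, 6 with the length trend removed and 11 with doublets retained, and ran from 0 to 102. Regional calls (18) were 9 by DESeq2, 37 without the filter, 11 with the length trend removed, 44 with doublets retained and 37 at resolution 2.0, and ran from 5 (without hippocampus, 21 months replicate 1, caudate putamen, 3 months replicate 1, or caudate putamen, 21 months replicate 2) to 65 (without hippocampus, 3 months replicate 2), with 9 without caudate putamen, 3 months replicate 2. The regional difference in age effect and the D2 against D1 difference stayed at 0 calls under every alternative run. The cause of these shifts was not tested. The share of all genes called under each alternative is not given, so a shift is not read as particular to the members. Hippocampal microglia-like nuclei, and so the fits of that class over both regions, could not be fitted at resolution 0.5 or with doublets retained.

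With the replicate number as a block, age calls became 9 in the hippocampus, 51 in the caudate putamen and 40 for the mean of both regions, and regional calls 17; the D2 against D1 difference had 0 calls without its block too. The labels do not say that equal numbers share animals, and with 2 numbers a region the correlation of their deviations ran from -0.15 to 0.12 in hippocampal and from 0.01 to 0.55 in caudate putamen classes.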
